A study of Homo sapiens with 6 samples.

Results

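The mRNA levels of 10 tubulin genes were compared between MIA PaCa-2 cells with and without added cytoglobin protein. The genes were the 4 alpha-tubulin genes TUBA1A, TUBA1B, TUBA1C and TUBA4A and the 6 beta-tubulin genes TUBB, TUBB2A, TUBB2B, TUBB3, TUBB4B and TUBB6. The genes were chosen by symbol, and each had 1 row among the 35993 genes of the deposited table. MIA PaCa-2 is an established line from a human pancreatic carcinoma. Cells in 24-well plates were moved to DMEM with 1% FBS and on the following day were either left untreated (3 libraries) or given 4 µM rhCYGB for 48 h (3 libraries). rhCYGB is recombinant human cytoglobin, a heme protein, which was made in E. coli with a 6His tag. All values come from 1 cell line and 1 dose and time, and the labels name no vehicle or control protein for the untreated group.

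Microtubules are hollow polymers of a dimer of alpha-tubulin and beta-tubulin. They carry transport through the cytoplasm and form the mitotic spindle, and the beta subunit is the target of the taxanes used against pancreatic cancer. Each subunit is encoded by several genes, called isotypes, whose proteins are nearly the same except at the acidic tail. Cells also adjust tubulin mRNA to the amount of free tubulin dimer: when free dimer is in excess, TTC5 binds the start of the growing tubulin chain on the ribosome, and with SCAPER and the CCR4-NOT subunit CNOT11 it brings the mRNA to decay.

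Of the 10 tubulin genes, 9 had enough counts for a test. By edgeR's quasi-likelihood test, 7 of them were lower and 2 were higher after rhCYGB (adjusted p under 0.05, Benjamini-Hochberg adjustment over the 14728 genes tested). Among all genes tested, 38.6% were lower and 39.0% were higher by the same rule, so passing the threshold was common in these libraries. With a change of 2-fold or more also required, 4 tubulin genes were lower and 0 higher, against 14.7% of all genes lower and 12.4% higher. The genes lower by 2-fold or more were TUBA1A, TUBA1B and TUBA1C, which are the main alpha-tubulin genes outside specialised tissues, and TUBB4B, a broadly expressed beta-tubulin gene. The median log2 fold change of the 9 genes was -0.81, and that of all genes tested was -0.0046. These are counts and medians of a chosen list, without a test of the list.

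The start of the coding sequence is shown for 5 of the genes, because the protein end that it encodes is what TTC5 recognises. The sequences are from the GENCODE transcripts on GRCh38 and run 5′ to 3′, with the first 4 codons in capitals.
TUBA1B: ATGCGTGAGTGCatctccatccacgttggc
TUBB: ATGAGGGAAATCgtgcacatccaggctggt
TUBB4B: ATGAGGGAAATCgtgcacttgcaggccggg
TUBB2A: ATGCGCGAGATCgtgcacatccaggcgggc
TUBB2B: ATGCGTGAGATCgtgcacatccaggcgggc
TUBA1A, TUBA1B and TUBA1C have the same 30 bases here, so the sequence printed for TUBA1B stands for all 3. These coding sequences stay alike over their whole length. TUBA1A and TUBA1B were identical at 97.3% of aligned bases with a longest shared run of 221 bases, and TUBA1B and TUBA1C at 96.9% with a run of 326 bases. TUBB2A and TUBB2B were identical at 98.1% and shared a run of 725 bases. Shorter runs joined other beta genes, with 185 bases shared by TUBB2A and TUBB3, 143 by TUBB2A and TUBB4B and 140 by TUBB3 and TUBB4B. TUBB and TUBB2A were identical at 84.8%, with no shared run over 35 bases. A read pair may fall wholly within a run shared by TUBA1B and TUBA1C or by TUBB2A and TUBB2B, and how such reads were divided is not given in the sources used here. The values of the 3 TUBA1 genes and of TUBB2A and TUBB2B are therefore uncertain one by one, and the sums over each set are given with them. The same holds for TUBB3 and TUBB4B over the runs that they share with TUBB2A.

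Promoter sequences are shown for 1 alpha-tubulin gene and 1 beta-tubulin gene that fell by over 2-fold, TUBA1A and TUBB4B, and for 1 gene that rose, TUBB2A, chosen with their values known. They are RefSeq windows on GRCh38.p14 that reach from 250 bases before the transcript start to 50 after it. All 10 genes matched the RefSeq promoter table by symbol, with 15 windows among them. Capitals mark any match, on either strand, to CCAAT (the NF-Y box), TTTGAA and TTCGAA (forms of the cell cycle homology region), GGGCGG (the GC box of Sp1 factors) or GAANNTTC (part of a heat shock element, which can overlap the end of TTTGAA).
TUBA1A, chr12:49189031-49189330, minus strand: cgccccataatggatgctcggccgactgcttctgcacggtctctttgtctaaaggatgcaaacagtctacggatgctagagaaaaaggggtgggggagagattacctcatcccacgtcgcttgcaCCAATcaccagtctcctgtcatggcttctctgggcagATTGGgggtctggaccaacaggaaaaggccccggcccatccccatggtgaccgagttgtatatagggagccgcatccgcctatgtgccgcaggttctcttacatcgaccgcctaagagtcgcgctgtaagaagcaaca
TUBB4B, chr9:137241037-137241336, plus strand: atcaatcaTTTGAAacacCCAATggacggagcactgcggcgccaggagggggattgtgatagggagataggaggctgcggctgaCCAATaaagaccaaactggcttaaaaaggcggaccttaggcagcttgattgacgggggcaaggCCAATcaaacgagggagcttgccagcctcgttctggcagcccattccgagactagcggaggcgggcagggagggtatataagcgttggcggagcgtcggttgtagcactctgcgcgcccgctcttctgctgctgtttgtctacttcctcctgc
TUBB2A, chr6:3157495-3157794, minus strand: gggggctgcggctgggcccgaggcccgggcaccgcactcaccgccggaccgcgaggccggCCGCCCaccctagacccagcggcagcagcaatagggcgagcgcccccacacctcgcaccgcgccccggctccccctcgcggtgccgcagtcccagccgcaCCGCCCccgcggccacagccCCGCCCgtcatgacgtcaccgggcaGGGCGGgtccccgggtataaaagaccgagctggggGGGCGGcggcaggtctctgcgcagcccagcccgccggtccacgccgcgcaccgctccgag
The TUBA1A window holds 2 CCAAT matches and the TUBB4B window 3, with 1 TTTGAA. The TUBB2A window holds 5 GGGCGG matches and none of the other 4 motifs. These windows do not stand for a split by direction: the window of TUBB2B, which also rose, holds 1 CCAAT, and that of TUBA1B, which fell, holds 0 CCAAT and 3 GGGCGG matches. CCAAT was present in 9 of the 15 windows, from 7 genes, and in 34.6% of 35116 promoter windows of the same length. GGGCGG was present in 9 of the 15, from 8 genes, against 45.0% of all windows. TTTGAA was in 4 windows, from 2 genes, TTCGAA in 1, from 1 gene, and GAANNTTC in 3, from 2 genes. Of all windows, 15.2%, 1.45% and 6.77% held them. Most windows with TTTGAA or GAANNTTC were those of TUBA1C, and overlapping TUBA1C windows hold the same GAANNTTC match. Windows of 1 gene can overlap, and a match is a match of letters, not a bound site.

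The libraries held between 34838399 and 42271299 counts on genes, and 3 counts corresponded to between 0.0669 and 0.0902 CPM (edgeR's CPM, counts relative to the TMM-scaled library size, the unit of the levels below unless FPKM is named). No library was a copy of another, since those within a group differed beyond counting error. The labels do not say that they came from separate cultures, so p-values measure only the spread between these libraries. Scaling by total counts in place of TMM moves the median log2 fold change of all genes by -0.165. Of the carcinoma line markers KRT8, KRT18, KRT7, KRT19, VIM, EPCAM and CDH1, EPCAM was at 0 in every library and CDH1 was near 0. KRT7 was low, with means of 0.589 CPM in untreated and 0.823 CPM in rhCYGB libraries. The summed level ran from 11762 to 12161 CPM in untreated and from 14502 to 15223 CPM in rhCYGB libraries, most of it VIM. The markers did not move together: the log2 fold change was 0.55 for VIM, -0.81 for KRT8 and -0.61 for KRT19. KRT18, at 0.040, did not pass the threshold. Markers of other cells were low. The 3 acinar markers summed to at most 1.67 CPM with PRSS1 and CPA1 at 0, the 4 stellate cell markers to at most 6.18 CPM, nearly all ACTA2, and PECAM1 and PTPRC were at 0. The cells were sequenced in bulk, so fewer cells of a state and less RNA per cell cannot be told apart in any value below.

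Of the 9 genes, TUBA1A and TUBA1B fell most. TUBA1B, the alpha isotype of most dividing cells (chr12:49521565-49525178 in the deposited table), had 44871, 55252 and 49479 counts in untreated libraries 1 to 3 and 14986, 13104 and 15156 in rhCYGB libraries 1 to 3. The levels were 1204, 1233 and 1213 CPM untreated and 403, 394 and 411 CPM after rhCYGB. Every rhCYGB library was far below every untreated library, and the groups did not overlap. The log2 fold change was -1.59 (SE 0.033, edgeR adjusted p = 4.20e-15), a level 3.02-fold lower.

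TUBA1A, which is known for its high level in developing neurons, lies in the same cluster (chr12:49578578-49583107). Its levels were 247, 251 and 254 CPM in untreated and 82.6, 77.4 and 80.0 CPM in rhCYGB libraries. The groups stood well apart, and the log2 fold change of -1.65 (SE 0.039, edgeR adjusted p = 1.38e-14) was close to that of TUBA1B. TUBA1C (chr12:49621709-49668383), a widely expressed gene, had 822, 837 and 812 CPM untreated and 403, 393 and 392 CPM after rhCYGB. It fell in every rhCYGB library too, but less, with a log2 fold change of -1.06 (SE 0.033, edgeR adjusted p = 3.01e-13). With the 3 genes summed into 1 row of the table, the log2 fold change was -1.38 (edgeR adjusted p = 5.78e-15). This sum does not depend on how reads were split among the 3 genes. It does not settle reads that were left out, counted more than once or shared with genes or pseudogenes outside the sum.

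TUBA4A (chr2:220114432-220119330), an alpha isotype of blood platelets, brain and muscle, was almost silent here. It had 5, 0 and 0 counts in untreated and 13, 3 and 9 counts in rhCYGB libraries, which overlap as CPM, and it was removed before the test by the filter on low counts. A count of 0 allows up to 0.0736 CPM in untreated library 3. Its interval overlaps those of STK16 and TUBA4B, and whether the counting used strand is not given in the sources used here.

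**Figure D1:**
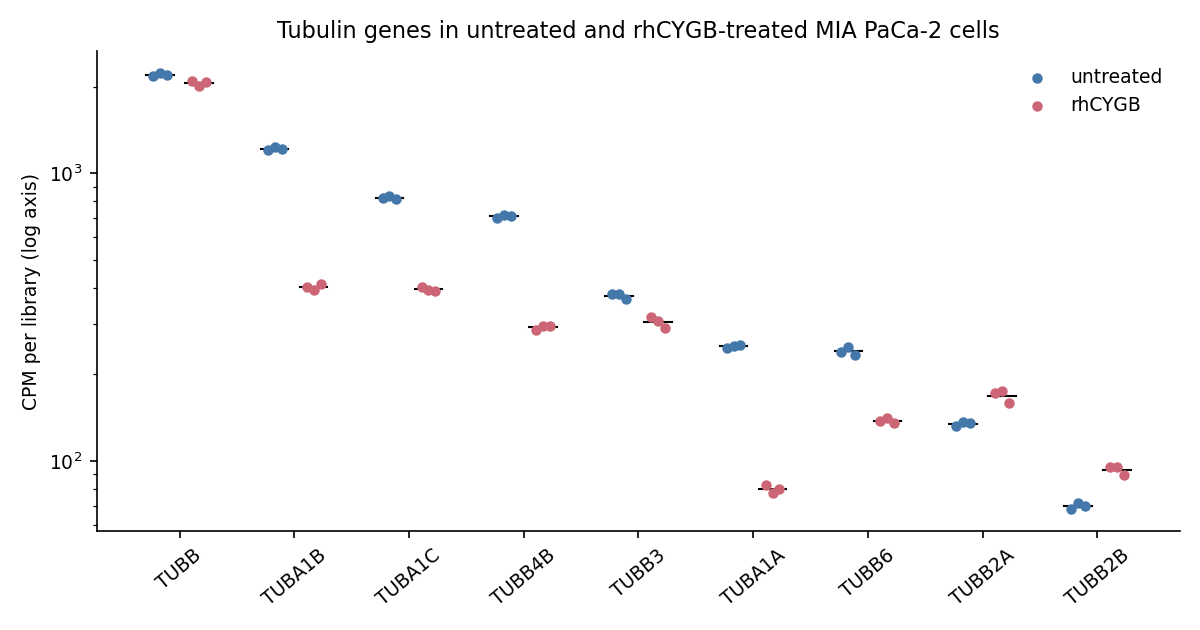
CPM of 9 tubulin genes in each library (log axis, points) with the group mean (black line), untreated in blue and rhCYGB-treated in red. TUBB is the highest gene in both groups, and TUBB2A and TUBB2B are the genes with the red points above the blue.

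Among the beta-tubulin genes, TUBB4B fell most. This isotype (chr9:140135739-140138159) is found in most tissues and also in cilia. It had 701, 716 and 714 CPM in untreated libraries and 286, 294 and 295 CPM after rhCYGB. The lowest untreated library was over 2-fold above the highest rhCYGB library. The log2 fold change was -1.28 (SE 0.034, edgeR adjusted p = 4.47e-14), or 2.43-fold lower. The deposited interval of TUBB4B overlaps that of FAM166A.

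TUBB6 (chr18:12307668-12329825, overlapping AFG3L2), a divergent beta isotype, had 240, 250 and 235 CPM untreated and 137, 141 and 136 CPM after rhCYGB. Its groups did not overlap, and its log2 fold change was -0.81 (SE 0.038, edgeR adjusted p = 2.80e-11). TUBB3 (chr16:89988333-90002505), the neuronal beta isotype that many carcinomas also express, had 381, 382 and 365 CPM untreated and 317, 307 and 289 CPM after rhCYGB. Its fall was small beside that of TUBB4B but larger than the spread between libraries, with a log2 fold change of -0.30 (SE 0.040, edgeR adjusted p = 5.21e-06). The 4 neuron markers RBFOX3, SNAP25, SYP and MAP2 summed to between 8.37 and 9.99 CPM in untreated and between 5.87 and 7.94 CPM in rhCYGB libraries, nearly all of it SYP, with RBFOX3 and SNAP25 at or near 0. Their part in the TUBB3 values was not tested.

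TUBB, the most abundant tubulin mRNA of these cells (chr6:30688129-30693199), had the smallest change of the 9 genes with TMM scaling. It had 2176, 2242 and 2194 CPM in untreated libraries and 2091, 2018 and 2078 CPM after rhCYGB. The highest rhCYGB library was just below the lowest untreated library, so the groups did not overlap. The log2 fold change was -0.096 (SE 0.029, edgeR adjusted p = 0.00738). This is smaller than the shift that the choice of scaling makes, and with total counts it was -0.26, where TUBB2A at 0.16 changed least. Without untreated library 2 it was -0.082 with an edgeR adjusted p of 0.0461.

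TUBB2A and TUBB2B, neighbouring genes whose proteins are almost identical and which are best known from brain, rose. TUBB2A (chr6:3153900-3157778) had 132, 136 and 136 CPM untreated and 173, 175 and 159 CPM after rhCYGB. TUBB2B (chr6:3224511-3227887) had 67.9, 71.2 and 69.7 CPM untreated and 95.2, 95.7 and 89.1 CPM after rhCYGB. In both genes rhCYGB library 3 was the lowest of its group and still above every untreated library. The log2 fold changes were 0.32 (SE 0.042, edgeR adjusted p = 4.59e-06) and 0.42 (SE 0.044, edgeR adjusted p = 3.51e-07). Summed into 1 row, they gave 0.36 (edgeR adjusted p = 9.21e-07). With total counts the rises were 0.16 and 0.26, still past the threshold.

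**Figure D2:**
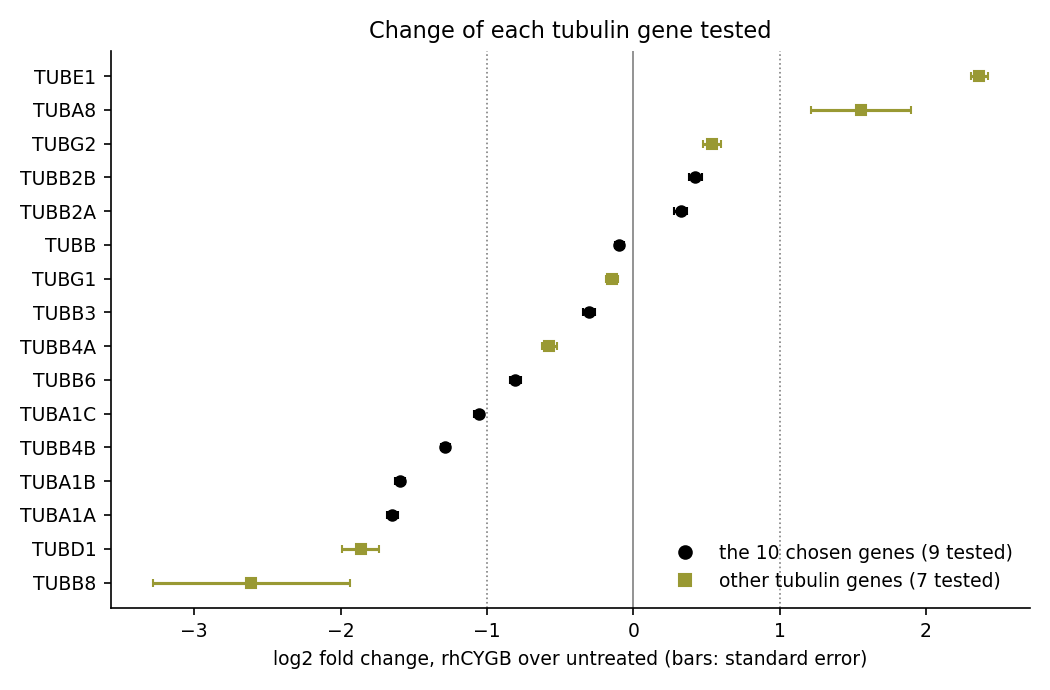
log2 fold change (rhCYGB over untreated) of the 9 chosen tubulin genes tested (black circles) and of the 7 other tubulin genes tested (green squares), with bars for the standard error and dotted lines at 2-fold. TUBA1A, TUBA1B, TUBB4B and TUBA1C lie beyond the 2-fold line on the left at -1.65, -1.59, -1.28 and -1.06, while TUBB, TUBB2A and TUBB2B lie between -0.096 and 0.42.

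FPKM values, which are divided by transcript length, allow levels to be compared between genes. In untreated cells the order from the top was TUBB at 820 ± 13.8 FPKM, TUBA1B at 697 ± 10.0, TUBB4B at 424 ± 7.44, TUBA1C at 272 ± 3.81, TUBB3 at 205 ± 3.55, TUBA1A at 136 ± 3.31, TUBB6 at 119 ± 3.44, TUBB2A at 77.6 ± 1.86, TUBB2B at 33.8 ± 0.931 and TUBA4A at 0.0137 ± 0.0237 (mean ± SD, n = 3). No neighbours in this order overlapped between libraries. After rhCYGB TUBB was still first at 685 ± 26.7 FPKM and TUBA1B second at 206 ± 8.89, then TUBB4B at 155 ± 4.02, TUBB3 at 148 ± 6.23, TUBA1C at 117 ± 2.57, TUBB2A at 86.4 ± 3.12, TUBB6 at 59.6 ± 0.236, TUBB2B at 40.4 ± 1.08, TUBA1A at 37.8 ± 1.26 and TUBA4A at 0.0757 ± 0.0497. TUBB4B and TUBB3 did not differ here beyond their spread, with library ranges of 153 to 160 and 144 to 155 FPKM. TUBA1A moved from the sixth place to the ninth, below TUBB2A, TUBB6 and TUBB2B.

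The alpha and beta mRNA pools were then summed over every alpha and every beta gene of the table. The alpha sum was 2273, 2322 and 2279 CPM in untreated and 890, 865 and 884 CPM in rhCYGB libraries. The beta sum was 3740, 3839 and 3756 CPM untreated and 3129, 3058 and 3074 CPM after rhCYGB. Both sums were lower in every rhCYGB library, the alpha sum much more so. The ratio of alpha to beta in FPKM, which does not depend on the scaling of a library, was 0.652, 0.650 and 0.653 in untreated and 0.303, 0.303 and 0.309 in rhCYGB libraries. In counts it was 0.606 ± 0.00156 and 0.285 ± 0.00238 (mean ± SD, n = 3). Alpha and beta genes together held 0.635, 0.653 and 0.639% of all counts in untreated libraries and 0.374, 0.375 and 0.374% in rhCYGB libraries.

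The isotype makeup of each pool was compared next. A share of the alpha or beta counts of a library is also free of library scaling, and each difference was tested with an exact two-sided permutation test, whose smallest p with 3 against 3 libraries is 0.1. Within alpha, TUBA1B went from 53.1 ± 0.125 to 45.8 ± 0.630%, and TUBA1A from 10.9 ± 0.170 to 9.09 ± 0.168%, while TUBA1C went from 35.9 ± 0.280 to 45.0 ± 0.602% (mean ± SD, n = 3, exact permutation p = 0.1 for each). The 3 genes summed changed by -0.143 percentage points of the alpha counts. They hold nearly all alpha counts in both groups, so this sum had little room to change. The only other alpha genes with counts were TUBA8, at 0.0176% untreated and 0.137% after rhCYGB, and TUBA4A, at 0.00197 and 0.0258%. These 3 genes share reads, and the part of read division in their shifts was not tested. The share of TUBA1C rose although its level fell. Counts are not divided by length, so shares of different genes are not compared with each other here. In FPKM, which are, TUBA1B had 63.0 ± 0.0518% of alpha in untreated and 57.0 ± 0.724% in rhCYGB cells, and TUBA1C 24.6 ± 0.247 and 32.4 ± 0.593%.

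Within beta, TUBB went from 58.3 ± 0.131 to 66.8 ± 0.818% of the counts, and TUBB4B from 18.8 ± 0.193 to 9.45 ± 0.275% (exact permutation p = 0.1 for each). The share of TUBB6 was 6.39 ± 0.132% untreated and 4.47 ± 0.112% after rhCYGB, that of TUBB2A 3.57 ± 0.0467 and 5.46 ± 0.280%, and that of TUBB2B 1.84 ± 0.0239 and 3.02 ± 0.118% (exact permutation p = 0.1 for each). Summed, TUBB2A and TUBB2B changed by 3.08 percentage points of the beta counts. TUBB3 had 9.95 ± 0.223% untreated and 9.86 ± 0.400% after rhCYGB, and here the groups overlapped (exact permutation p = 0.8). At 3 libraries a group no share difference could reach a p under 0.05, so the ones given as 0.1 are those in which no library of one group lay within the other.

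**Figure D3:**
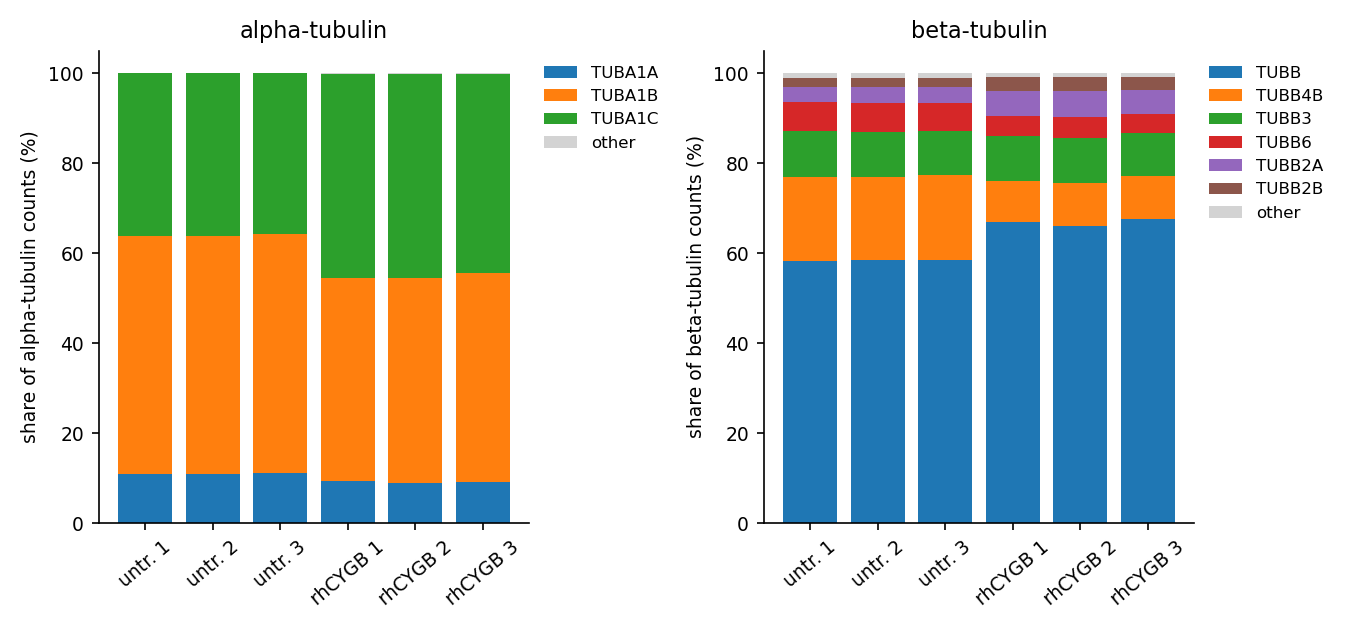
Share of each gene in the alpha-tubulin counts (left) and beta-tubulin counts (right) of each library, in percent, as stacked bars that add to 100. TUBA1C takes 35.9% of the alpha counts in untreated and 45.0% in rhCYGB libraries, TUBB4B takes 18.8% and 9.45% of the beta counts, and TUBB3 takes 9.95% and 9.86%.

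The transcript table divides the counts of the 10 genes among 32 transcripts by the assembler's estimate, and 24 of them, from 9 genes, were tested. By the same edgeR test over the 32577 transcripts kept, 7 were lower and 4 higher after rhCYGB, against 14.8% and 15.1% of all transcripts. The transcript with most counts was lower in TUBA1A, TUBA1B, TUBA1C, TUBB, TUBB3, TUBB4B and TUBB6, and higher in TUBB2A and TUBB2B. Transcripts were scaled apart from genes, so the log2 fold changes of the 2 fits are offset. TUBA1B, which has 1 transcript, was at -1.68 as a transcript and at -1.59 as a gene.

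TUBB6 was the gene with transcripts past the threshold in both directions. Its variant 1, the main form, had 8102, 10016 and 8583 counts in untreated and 3246, 2920 and 3200 in rhCYGB libraries, a log2 fold change of -1.39. Its variant 7 had 447, 690 and 503 counts untreated and 1472, 1381 and 1556 after rhCYGB, a log2 fold change of 1.55 (SE 0.122, edgeR adjusted p = 0.000444). Both transcripts separated the groups with no overlap. Variant 1 made up 90.0 ± 0.625% of the TUBB6 counts in untreated and 63.3 ± 0.768% in rhCYGB cells, and variant 7 5.48 ± 0.611% and 29.8 ± 1.12% (mean ± SD, n = 3, exact permutation p = 0.1 for each). The gene-level fall of TUBB6 was therefore smaller than that of its main transcript. The other 5 TUBB6 variants tested had no more than 209 counts in any library, and none passed the threshold. The TUBB6 interval overlaps that of AFG3L2, and the sources used here do not say whether counting used strand. Whether reads of AFG3L2 enter these variant counts was not tested.

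TUBB2A also had a minor form that rose more than its main one. Variant 2 had 160, 139 and 118 counts untreated and 389, 271 and 278 after rhCYGB, a log2 fold change of 1.27 (SE 0.255, edgeR adjusted p = 0.0153), against 0.20 for variant 1. Variant 2 was 2.55 ± 0.611% of the TUBB2A counts in untreated and 5.16 ± 0.788% in rhCYGB cells (exact permutation p = 0.1). With total counts the rise of variant 1 was no longer past the threshold (edgeR adjusted p = 0.131). In TUBA1A, variant 2 went from 7.43 ± 0.721% to 15.5 ± 5.22% of the counts, with rhCYGB library 2 at 9.47% and the others at 17.9 and 19.0%, and its own level did not pass the threshold (log2 fold change -0.66, SE 0.293, edgeR adjusted p = 0.160).

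**Figure D4:**
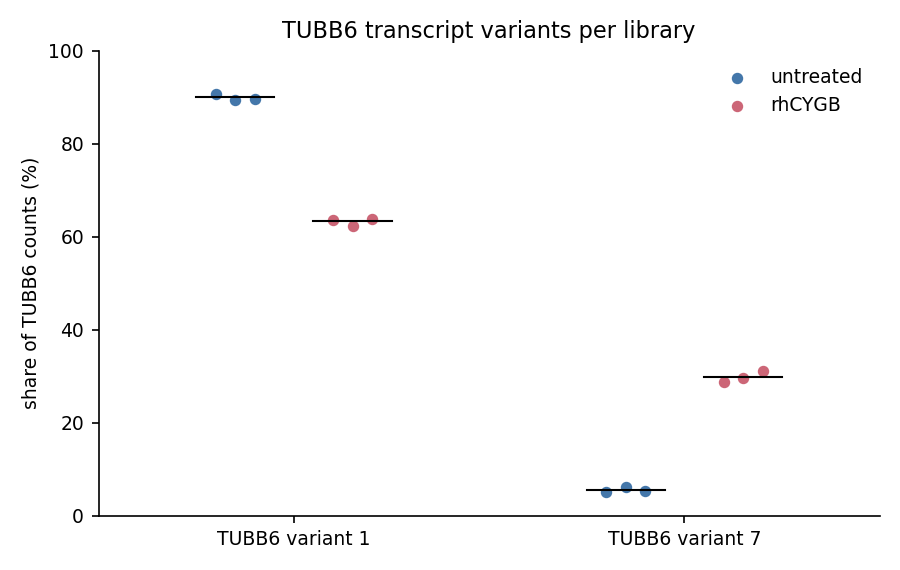
Share of the TUBB6 counts assigned to transcript variants 1 and 7 in each library (points, percent) with the group mean (line), untreated in blue and rhCYGB-treated in red. Variant 1 averages 90.0% in untreated and 63.3% in rhCYGB libraries and variant 7 5.48% and 29.8%, with all points of a group close together.

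The remaining 13 tubulin genes of the table were weakly expressed or belong to other classes, except TUBB4A. TUBB4A is a beta-tubulin gene, at 42.2 ± 0.670 CPM in untreated libraries. Of these, 7 were tested, and 3 were higher and 4 lower, against 39.0% and 38.6% of all genes tested. TUBE1, the epsilon-tubulin of centrioles, rose from 466, 522 and 452 to 2218, 1965 and 2303 counts (log2 fold change 2.36, edgeR adjusted p = 2.71e-14). TUBD1, the delta-tubulin of centrioles, went the other way, from 426, 497 and 514 to 136, 110 and 99 counts (-1.86, edgeR adjusted p = 2.31e-09). The gamma-tubulin genes, which nucleate microtubules, split between them, TUBG1 at -0.15 and TUBG2 at 0.54 on the log2 scale. TUBB4A fell from 1589, 1909 and 1691 to 1094, 921 and 1027 counts (-0.58). TUBB8 had 12, 19 and 13 counts against 3, 0 and 3, and TUBA8 15, 23 and 12 against 32, 47 and 49, with adjusted p of 0.00254 and 0.000712 from edgeR at these low counts. TUBB1, the platelet isotype, had 9, 4 and 13 counts against 0, 0 and 2 and was not tested. TUBA3C, TUBA3D, TUBA3E, TUBA4B and TUBAL3 had 0 counts in every library.

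Of 23 alpha and beta pseudogenes in the table, 10 had counts, and their sum was between 0.330 and 0.359% of the alpha and beta gene counts in untreated and between 0.428 and 0.477% in rhCYGB libraries. TUBB2BP1 had more counts than any other of them, with 402, 486 and 436 counts untreated and 478, 445 and 493 after rhCYGB.

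The genes that act on tubulin were taken as 7 further lists, and the largest changes among them are given. Over these lists and the other tubulins together, 39 of 100 genes tested were higher and 41 lower, near the shares of all genes (39.0% and 38.6%), and the median log2 fold change was -0.060. With total counts 31 were higher and 53 lower, and of all genes 31.8% were higher and 45.7% lower, so this balance rests on the scaling. The 3 genes of tubulin mRNA decay went different ways. CNOT11 was at 68.4 ± 0.384 CPM untreated and 57.7 ± 1.47 CPM after rhCYGB (log2 fold change -0.24, edgeR adjusted p = 9.00e-05), and SCAPER at 6.07 ± 0.161 and 8.83 ± 1.24 CPM (0.54, edgeR adjusted p = 0.000801). TTC5 did not pass the threshold, at 9.66 ± 0.282 and 8.41 ± 0.107 CPM (-0.20, edgeR adjusted p = 0.0592), but did with total counts (-0.37, edgeR adjusted p = 0.00201).

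Of 21 genes of the chaperonin, prefoldin and tubulin cofactors, which fold tubulin and join the dimer, 10 were higher and 9 lower, near the 39.0% and 38.6% of all genes tested, with a median of -0.049. With total counts 6 were higher and 11 lower, against 31.8% and 45.7% of all genes. PFDN2, a prefoldin subunit, went from 54.2 ± 4.06 to 127 ± 10.8 CPM (log2 fold change 1.22), and the cofactor TBCE from 50.3 ± 0.725 to 93.3 ± 4.14 CPM (0.89). The cofactor TBCD fell from 194 ± 1.01 to 99.4 ± 1.86 CPM (-0.97), and PFDN6 from 38.5 ± 2.31 to 25.5 ± 2.31 CPM (-0.60). TBCD and TBCE act in the same step, the assembly of the dimer, and changed in opposite directions.

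Among 18 tested genes of enzymes that modify tubulin, 10 were lower and 4 higher, against 38.6% and 39.0% of all genes tested, with a median of -0.30. VASH1 and VASH2 are enzymes that remove the last tyrosine of alpha-tubulin. They were at 22.9 ± 0.761 and 2.76 ± 0.673 CPM untreated and at 7.99 ± 0.998 and 0.230 ± 0.0693 CPM after rhCYGB (log2 fold changes -1.52 and -3.55). VASH2 had few counts, with 110, 90 and 135 in untreated and 10, 5 and 10 in rhCYGB libraries. AGBL3, a deglutamylase, fell by 1.14 on the log2 scale. AGTPBP1, another deglutamylase, rose from 41.0 ± 0.346 to 92.9 ± 1.36 CPM (1.18), and the ligase TTLL4 rose by 0.76.

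The stathmins, which hold free tubulin dimers, and the proteins that bind the microtubule lattice had 6 genes higher and 7 lower of 18 tested, near the 39.0% and 38.6% of all genes tested. With total counts 5 were higher and 10 lower, against 31.8% and 45.7% of all genes. STMN1 fell from 344 ± 13.1 to 179 ± 6.01 CPM (-0.95) and STMN3 from 352 ± 10.0 to 103 ± 2.38 CPM (-1.77). MAP1B rose from 8.30 ± 0.444 to 51.7 ± 2.73 CPM (2.64), MAP1LC3B, which is best known as an autophagy protein, from 128 ± 2.60 to 519 ± 12.6 CPM (2.02), and EML2 from 16.2 ± 2.07 to 48.2 ± 2.14 CPM (1.57).

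Of 16 genes of proteins of the microtubule ends, 11 were higher and 3 lower, against 39.0% and 38.6% of all genes tested, with a median of 0.59. With total counts 11 were higher and 5 lower, against 31.8% and 45.7% of all genes. All 3 CAMSAP genes, which protect minus ends, rose. CAMSAP3 went from 11.4 ± 0.735 to 38.7 ± 1.54 CPM (log2 fold change 1.76) and CAMSAP1 from 55.8 ± 3.20 to 140 ± 7.92 CPM (1.33). The plus-end genes CLIP2 and MAPRE3 rose by 1.71 and 1.57 on the log2 scale. TACC3, a spindle protein, fell from 97.1 ± 2.95 to 31.2 ± 1.23 CPM (-1.64), and CLASP1 was at -0.28, past the threshold. Of 11 genes of the gamma-tubulin complex, 2 were higher and 4 lower. TUBGCP5 was lowest at -1.36, TUBGCP2 next at -0.38, and AKAP9 rose by 0.43. NEDD1 was also called higher, at 0.12, but was at -0.043 with total counts (edgeR adjusted p = 0.454). With total counts 1 of the 11 genes was higher and 7 lower, against 31.8% and 45.7% of all genes. Of 6 tested severing enzyme genes, KATNAL2 and FIGNL1 fell, with log2 fold changes of -1.48 and -1.39. KATNA1 and SPAST were at 0.21 and 0.16, past the threshold, but at 0.043 and -0.0025 with total counts, where neither passed it (edgeR adjusted p = 0.547 and 0.973). All list calls are by edgeR at an adjusted p under 0.05.

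**Figure D5:**
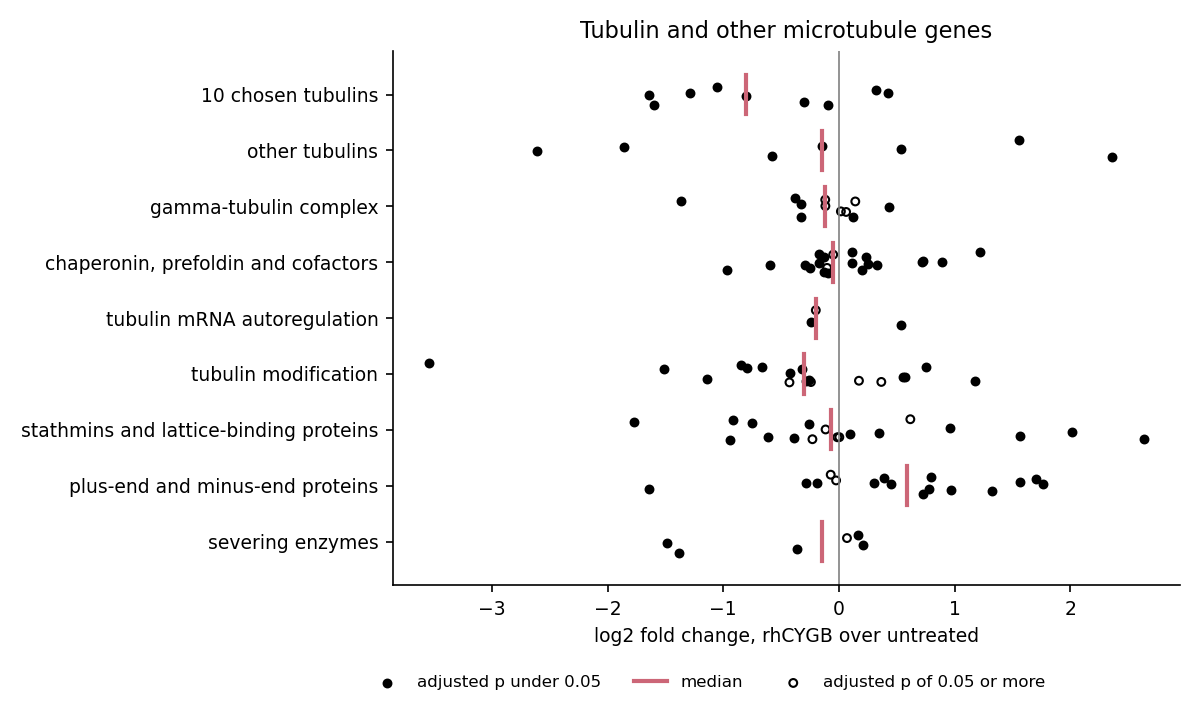
log2 fold change (rhCYGB over untreated) of each tested gene in the 10 chosen tubulins and 8 other microtubule lists (filled points past an adjusted p of 0.05, open points not, red bar the median, vertical placement within a list only to separate points). The median lies at -0.81 for the chosen tubulins and at 0.59 for the proteins of microtubule ends, and between -0.30 and -0.049 for the other 7 lists.

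Over the 6 libraries, the genes outside tubulin whose log2 CPM followed TUBB, the member with the highest level, most closely were MCM3AP-AS1 (Pearson r = 0.998), SEPT5-GP1BB (0.997), KIAA0895 (0.996), HERC2P11 (0.995) and PAN3-AS1 (0.995). These 5 were chosen for this likeness, the points share libraries and 2 groups, and the values are a description. All were weakly expressed, the highest being SEPT5-GP1BB, with at most 18.7 CPM in a library and a log2 fold change of -0.63.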

How the data were processed

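RNA of cells in 3 untreated and 3 rhCYGB-treated samples (grouped by GEO's labels) was prepared with a stranded mRNA kit. The submitters' processing notes list FastQC 0.11.7, HISAT2 2.1.0 and StringTie 2.1.3b, and mm10, although the genes are human. The files name no build, and for 7 of the 10 genes the deposited position does not overlap that in GRCh38. The authors deposited read counts per gene and per transcript as whole numbers without normalization, and FPKM values scaled to transcript length and depth. The 12 deposited TPM columns were not used.

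Counts were tested with edgeR 4.0.16 (R 4.3.3), using its quasi-likelihood test on all 6 libraries after filterByExpr and TMM scaling, with Benjamini-Hochberg adjustment. The filter kept 14728 of 35993 genes. A prior count of 2 was added for log2 CPM. Floors of 3 counts stand for counting error alone, as reads carry no molecular identifiers. Near-identical coding sequences were aligned with Biopython 1.88.

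All 10 genes and all other tubulin genes are named, with, from each other list, every gene of a list of 3, otherwise the 2 largest rises and falls past the threshold and any gene changed 2-fold or more. The 5 genes most like TUBB are named too, and TUBB2BP1 was named after its values were seen. Some list members are not reported here by name. Members and lists were chosen with earlier results of these data known. Alternatives were other scalings, DESeq2 1.42.0, limma 3.58.1 on log2(FPKM + 1) and log2(FPKM + 0.1), other filters, counts summed from transcripts, summed near-identical genes, a replicate block and leaving out each library.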

Additional observations from a re-analysis of the deposited data

How the results depend on the processing

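The 9 tested tubulin genes were refitted under 16 alternative settings, and TUBB, TUBB3, TUBB4B and TUBB6 also with near-identical genes summed. They kept their direction and their side of the threshold in all 148 values. The values closest to 0 were -0.082 for TUBB without untreated library 2 (highest adjusted p 0.0461) and 0.15 for TUBB2A with limma on log2(FPKM + 1). All 130 counts of calls stayed within 1.5 times the main count, leaving out each library included. With the replicate block, 2 tubulin genes were higher and 7 lower, as without it, and TUBA1B was at -1.60. Deviations from the group means of same-numbered libraries correlated at -0.048, 0.0072 and 0.0055, and not every library correlated best with its own number. These values show no pairing by number, but with 3 libraries a group they cannot exclude it. The replicate block changed no call of a tubulin gene.

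Of 63 values for isotype shares, 54 kept their sign and moved by no more than 1 SD between libraries (pooled over both groups), 6 moved further and 3 changed sign. The difference of the TUBB3 share, -0.0854 percentage points in counts, was 0.426 in FPKM and ranged from -0.223 to 0.144 when a library was left out, with 0.0279 without untreated library 1 and 0.144 without rhCYGB library 3. Its sign is therefore not determined, and the cause was not tested. FPKM also gave -6.06 points for TUBA1B, 7.80 for TUBA1C, 9.45 for TUBB, 2.73 for TUBB2A, 1.42 for TUBB2B and -11.9 for TUBB4B, all in the main direction. With 3 libraries a group no share could pass a threshold, and TUBA4A was too low to test.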
